A study of Mus musculus with 2 samples.

Results

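The Hox genes were followed in RNA sequencing of E14 cells, a mouse embryonic stem cell line whose strain the labels give as 19/Ola, grown without feeders on gelatin in medium with LIF. There were 2 libraries, one of cells transfected with control shRNA (genotype Normal in the labels) and the other of cells transfected with USP21 shRNA (genotype USP21 knockdown), each harvested after 3 days. The comparison asks how loss of USP21, a protease that removes ubiquitin from proteins, changes the RNA of stem cells that otherwise share line, medium and harvest time. The labels do not say which USP21 shRNA was used or whether transfected cells were selected. A row was taken as a Hox gene when its symbol was Hoxa, Hoxb, Hoxc or Hoxd followed by a number, which gave 39 genes of the 23889 symbols with a value. These are the whole protein-coding set of the 4 mouse clusters, with 11 genes in HoxA on chromosome 6, 10 in HoxB on chromosome 11, 9 in HoxC on chromosome 15 and 9 in HoxD on chromosome 2.

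Hox genes encode homeodomain transcription factors that give cells their position along the head-to-tail axis. Within each cluster the genes lie in the order in which they are used, from paralogue group 1, expressed early and far forward, to group 13, expressed late and at the tail and limb tips. In embryonic stem cells the clusters are textbook Polycomb targets: PRC2 places methyl groups on histone H3 lysine 27, PRC1 places ubiquitin on histone H2A, and the genes are held silent but inducible, for example by retinoic acid.

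Values are FPKM, fragments scaled by transcript length and by sequencing depth, a scale on which levels of different genes can be compared. With 1 library per group there is no replicate spread, so no test was made and every difference below is between these 2 libraries. A change is given as the log2 ratio of USP21 shRNA over control shRNA after adding 0.1 to each FPKM, which understates the change of low genes, and a gene was called changed at 2-fold, provided that it reached an FPKM of 0.1 in at least one library. The files hold no counts. From the steps that single fragments leave in low values, the control library was about 1.23 times as deep as the other, and fragment numbers below are approximate conversions by annotated transcript length. Usp21 itself fell from 26.2 to 3.49 FPKM, a log2 ratio of -2.87. All 8 embryonic stem cell markers were expressed in both libraries, with Pou5f1 at 868 FPKM in the control and 752 FPKM with USP21 shRNA, and all 8 were lower with USP21 shRNA as deposited, by a median log2 ratio of -0.26. The deposited values of all genes also summed to less with USP21 shRNA (613617 and 543206 FPKM), and with both libraries set to equal sums 6 of the 8 were lower and 2 higher, with a median of -0.09.

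The Hox genes were close to silent in both libraries. Of the 39 genes, 11 (28.2%) reached an FPKM of 0.1 in at least one library, against 64.1% of all symbols. One, Hoxb9, reached an FPKM of 1, a level reached by 49.9% of all symbols. The median Hox gene stood at 0.0184 FPKM in the control library and 0.0286 FPKM with USP21 shRNA, where the median symbol stood at 0.791 and 0.797 FPKM. Summed over the 39 genes, the level was 3.86 FPKM in the control and 3.84 FPKM with USP21 shRNA, about 304 and 245 fragments. Hoxb9, Hoxd13 and Hoxc13, all posterior genes, together held 54.3% of the summed Hox level in the control library and 50.1% with USP21 shRNA. Values of FPKM under 0.1 rest on at most about 8 fragments in either library.

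**Figure D1:**
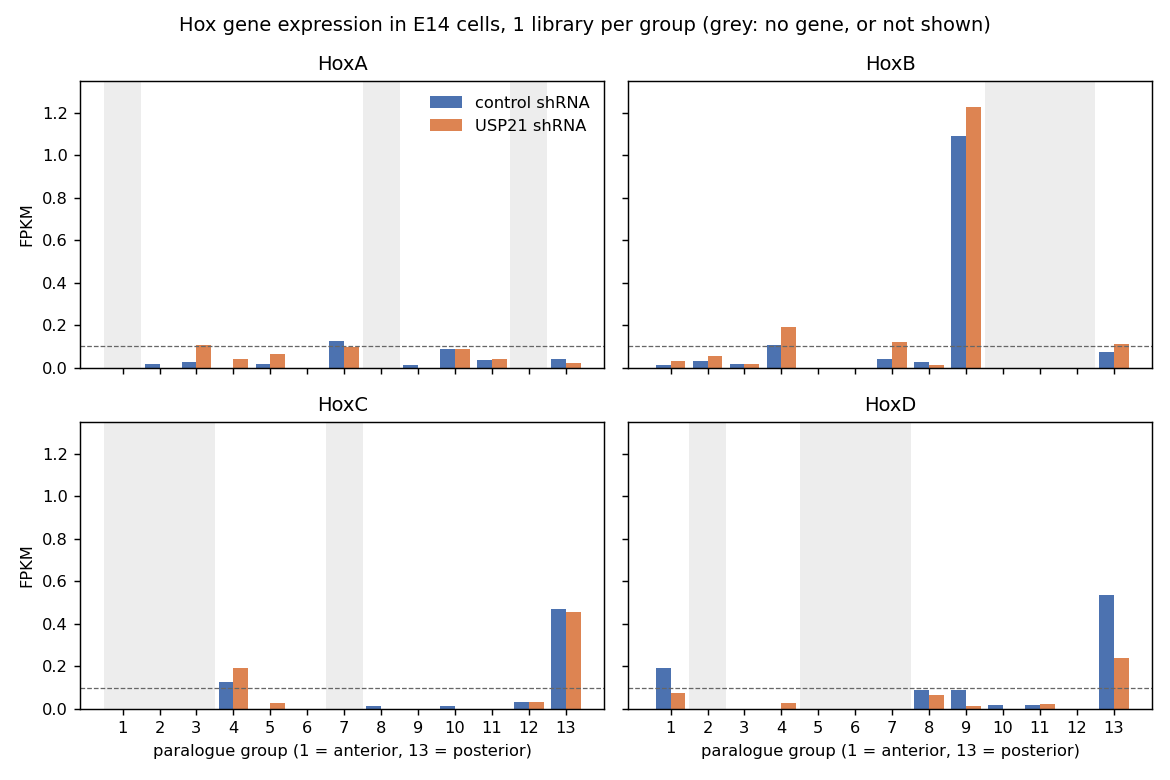
FPKM of each Hox gene by paralogue group in the 4 clusters, with 1 bar for the control shRNA library and 1 for the USP21 shRNA library, no error bars as each group has 1 library, grey where a cluster has no gene or a gene is not shown, and a dashed line at 0.1 FPKM. Hoxb9 stands at 1.09 and 1.23 FPKM, and Hoxd13 drops from 0.534 to 0.237 FPKM.

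No Hox gene was called changed. Of the 11 genes past the level, 0 were 2-fold higher and 0 were 2-fold lower with USP21 shRNA. Among all 15316 genes past the same level, 3.4% were 2-fold higher and 3% were 2-fold lower. Low genes scatter more, and among the 3389 genes whose higher value lay from 0.1 to under 1 FPKM, the range of 10 of the 11 Hox genes, 7.29% were 2-fold higher and 6.4% were 2-fold lower. With shares of that size, fewer than 1 call in either direction would match the background for 11 genes, so a count of 0 does not set the Hox genes apart. With the added 0.1, a gene whose higher value is 0.1 FPKM can reach 2-fold only when it is listed at 0 in the other library, and Hoxa3, Hoxb7 and Hoxb13 lie close to that limit. With a pseudocount of 0.01 in place of 0.1, Hoxa3 and Hoxb7 were 2-fold higher and Hoxd1 and Hoxd13 2-fold lower, 2 of 11 each way, against 5.32% and 4.68% of all genes past the level and 15.2% and 13.7% of those in the low range. A 1.5-fold threshold also gave 2 of 11 each way, against 10.2% and 8.84% of all genes and 18.6% and 17.2% in the low range. Both shares lie near those of genes of like level. The median log2 ratio of the 11 genes was 0.16, with 6 higher and 5 lower. That of all genes past the level was 0.0046, with 7732 higher and 7584 lower. Hoxa3, Hoxb7 and Hoxb13 reached the level only with USP21 shRNA, and Hoxa7 and Hoxd1 only in the control library, so their directions follow from the filter.

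**Figure D2:**
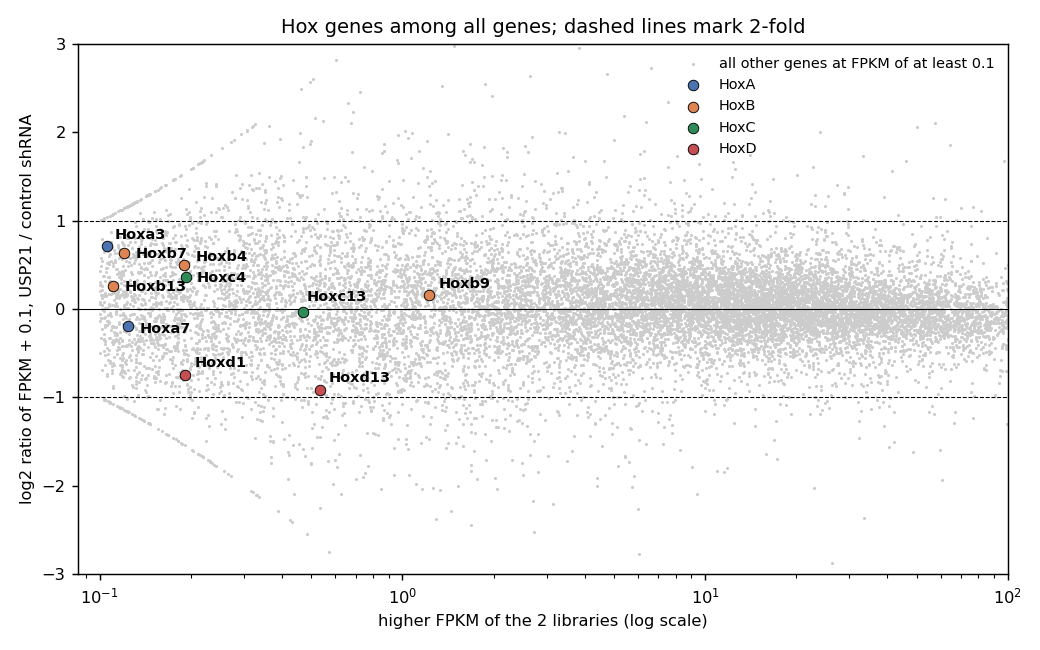
Log2 ratio of USP21 shRNA over control shRNA against the higher FPKM of the 2 libraries (log scale) for genes at 0.1 FPKM or more, with Hox genes coloured by cluster, dashed lines at 2-fold, and genes beyond the axes not drawn. The Hox genes lie between -0.91 (Hoxd13) and 0.71 (Hoxa3), inside both dashed lines, with both HoxD genes in the lower part.

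The HoxD cluster carried the widest difference. Its summed level was 0.938 FPKM in the control library and 0.435 FPKM with USP21 shRNA, 46.4% of the control and a log2 ratio of -1.11 on the sums, or about 72 against 27 fragments. Hoxd13, the most posterior gene of the cluster and a regulator of digit formation, was at 0.534 FPKM in the control and 0.237 FPKM with USP21 shRNA. This is 44.4% of the control level, about 44 against 16 fragments, and a log2 ratio of -0.91 that stays inside the 2-fold line because of the added 0.1. Among genes in the range from 0.1 to under 1 FPKM, 7.82% had a lower log2 ratio than Hoxd13. Hoxd1, at the opposite, anterior end of the cluster, was at 0.192 FPKM in the control and 0.0743 FPKM with USP21 shRNA, 38.8% of the control level, on about 12 against 4 fragments. Its log2 ratio was -0.74, and 11.8% of the genes in that range were lower. The drop of the sum did not rest on Hoxd13 alone, since the other 8 HoxD genes summed to 0.404 and 0.198 FPKM, or 49.1% of the control. Of the 7 HoxD genes above 0 in either library, 5 were lower with USP21 shRNA. Hoxd9, which acts in the limb and posterior trunk, went from 0.0894 to 0.0145 FPKM, and Hoxd8 from 0.0870 to 0.0627 FPKM, both under the level of 0.1.

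The starts of Hoxd13 and Hoxd1 are rich in CpG, the dinucleotide whose clusters form the CpG islands on which Polycomb complexes gather in stem cells. The windows from 250 bases before to 50 bases after the start were taken from RefSeq (GRCm38.p6) and are shown because these genes lie at the 2 ends of the cluster whose level differed, with each CpG in capitals. Both lie on the plus strand, Hoxd13 at chr2:74667975-74668274 and Hoxd1 at chr2:74762730-74763029. Hoxd13 holds 37 CpG, a ratio of observed to expected CpG of 0.904, and Hoxd1 holds 29, a ratio of 0.805.
Hoxd13: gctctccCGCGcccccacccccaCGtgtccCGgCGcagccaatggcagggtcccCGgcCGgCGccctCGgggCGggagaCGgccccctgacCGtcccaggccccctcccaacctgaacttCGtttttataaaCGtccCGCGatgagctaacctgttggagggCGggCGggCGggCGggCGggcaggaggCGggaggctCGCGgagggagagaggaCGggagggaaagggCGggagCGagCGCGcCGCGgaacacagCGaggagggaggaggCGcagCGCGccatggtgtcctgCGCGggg
Hoxd1: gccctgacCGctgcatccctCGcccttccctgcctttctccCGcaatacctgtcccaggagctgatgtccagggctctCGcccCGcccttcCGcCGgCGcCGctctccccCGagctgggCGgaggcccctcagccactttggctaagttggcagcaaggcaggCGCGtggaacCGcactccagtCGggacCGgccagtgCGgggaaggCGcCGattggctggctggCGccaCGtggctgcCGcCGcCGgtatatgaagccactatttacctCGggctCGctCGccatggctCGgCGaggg

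The HoxB cluster held the most Hox RNA in both libraries. Its sum was 1.40 FPKM in the control and 1.77 FPKM with USP21 shRNA, 126% of the control. This was about 117 fragments in each library, of which the USP21 shRNA library was the less deep. Hoxb9, which patterns the thoracic axis, supplied most of the HoxB sum. It was at 1.09 FPKM in the control and 1.23 FPKM with USP21 shRNA, about 94 against 86 fragments and a log2 ratio of 0.16. It was the highest Hox gene in both libraries. Hoxb4, a gene of the hindbrain and neck that is also known from blood stem cells, was at 0.105 and 0.190 FPKM, a log2 ratio of 0.50 on about 9 and 13 fragments. Hoxb7 was at 0.0417 FPKM in the control and 0.121 FPKM with USP21 shRNA, a log2 ratio of 0.64 on about 2 and 4 fragments, and 16.6% of the genes in the low range were higher. Hoxb13, a posterior gene of tail and prostate that lies apart from the rest of its cluster, was at 0.0760 and 0.111 FPKM, a log2 ratio of 0.26. All 4 HoxB genes past the level were thus higher, but Hoxb7 and Hoxb13 reached it only with USP21 shRNA, which fixed their direction. Above 0, 7 of the 8 HoxB genes were higher, with Hoxb1, Hoxb2 and Hoxb3 on about 1 to 2 fragments in each library. Hoxb8 went from 0.0252 to 0.0145 FPKM. Without Hoxb9 the HoxB sum was 0.309 FPKM in the control and 0.543 FPKM with USP21 shRNA.

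The HoxA and HoxC sums stood close to the control. HoxA summed to 0.865 FPKM in the control library and 0.920 FPKM with USP21 shRNA. Hoxa3, needed for pharyngeal arch organs, was at 0.0256 FPKM in the control and 0.106 FPKM with USP21 shRNA. Its log2 ratio of 0.71 was the highest of the 11 genes and rested on about 2 and 7 fragments, and 14.2% of genes in the low range were higher. Hoxa7 was at 0.124 and 0.0964 FPKM, a log2 ratio of -0.19. Exons of antisense transcripts overlap Hoxa3 and Hoxa7, over 15.1% and 23.3% of their exonic bases for the transcripts Hoxaas2 and Hoxaas3, and the strand setting of the counting is not stated, so fragments of the partners cannot be told apart. Across the clusters 8 Hox genes were overlapped in this way, and 6 shared exonic bases with another gene on their own strand.

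HoxC summed to 0.653 FPKM in the control and 0.712 FPKM with USP21 shRNA. Hoxc13, the last gene of its cluster and a regulator of hair and nail keratins, was at 0.469 and 0.457 FPKM, a log2 ratio of -0.03 on about 39 and 30 fragments. Hoxc4, at the other end, was at 0.127 and 0.192 FPKM, a log2 ratio of 0.37. The other 7 HoxC genes stayed under 0.1 FPKM, and 3 of them were listed at 0 in both libraries. Without Hoxc13 the HoxC sum was 0.184 FPKM in the control and 0.255 FPKM with USP21 shRNA, 139% of the control.

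**Figure D3:**
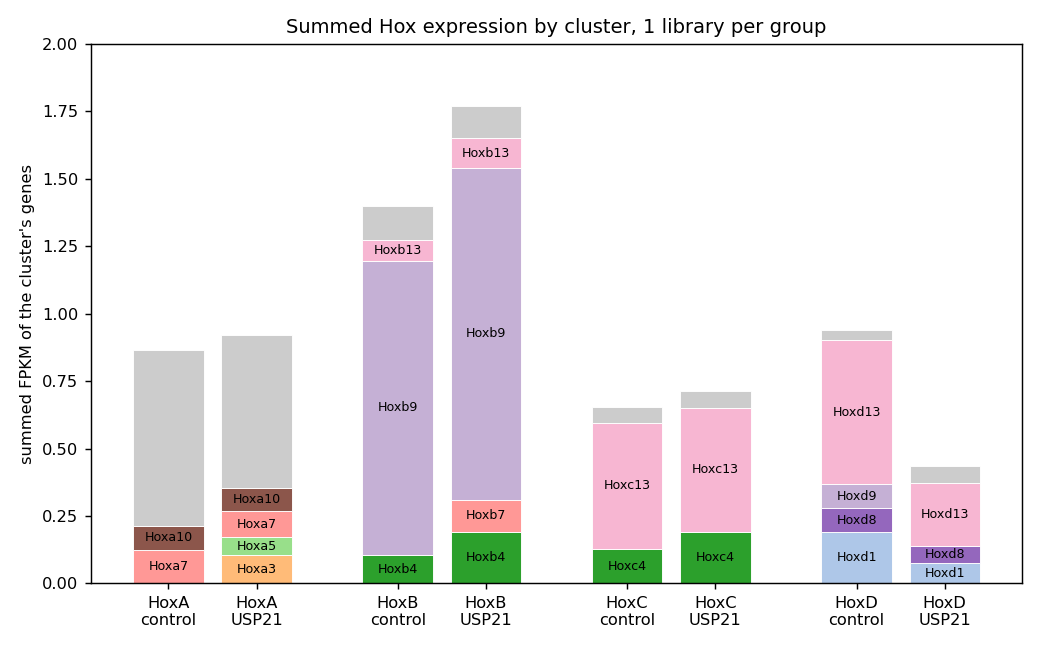
Summed FPKM of the genes of each cluster in the control and USP21 shRNA libraries, with stacked bars coloured by paralogue group, segments of at least 0.06 FPKM named, and the other genes of the cluster together in grey. HoxD goes from 0.938 to 0.435 FPKM, while the HoxB bar is higher with USP21 shRNA, at 1.77 against 1.40 FPKM.

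The shares of the clusters in the Hox RNA differed between the libraries. HoxD made up 24.3% of the summed Hox level in the control library and 11.3% with USP21 shRNA, and HoxB made up 36.3% and 46.1%. Hoxd13 was above Hoxc13 in the control library, at 0.534 and 0.469 FPKM, and below it with USP21 shRNA, at 0.237 and 0.457 FPKM, and without replicates no spread is at hand to separate such neighbours.

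By position along the cluster, anterior genes (paralogue groups 1 to 3), central genes (groups 4 to 8) and posterior genes (groups 9 to 13) were low alike. Past the level were 3 of 8 anterior, 4 of 15 central and 4 of 16 posterior genes. Posterior genes nonetheless held most of the RNA, 65.3% of the Hox sum in the control and 58.7% with USP21 shRNA, since Hoxb9, Hoxd13 and Hoxc13 are among them. The anterior sum was 0.799 FPKM in the control and 0.751 FPKM with USP21 shRNA, and the posterior sum was 2.52 and 2.25 FPKM, so both stood at 89.5% to 93.9% of the control. The central sum was 0.541 FPKM in the control and 0.834 FPKM with USP21 shRNA, 154% of the control on about 40 and 48 fragments. The median log2 ratio of genes past the level was -0.10 for anterior, 0.43 for central and 0.06 for posterior genes. For the anterior genes the order changed when group 4 was counted among them, which gave 0.37 for anterior and 0.22 for central genes.

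Within paralogue groups the 4 genes of group 4 (Hoxa4, Hoxb4, Hoxc4 and Hoxd4) were all higher with USP21 shRNA, with sums of 0.231 and 0.447 FPKM. The 3 genes of group 8 and the 3 of group 10 were all lower, with sums of 0.125 and 0.0772 FPKM and of 0.120 and 0.0868 FPKM. Many of these directions rest on 1 or 2 fragments. Hoxa4 and Hoxd4 went from 0 to about 2, Hoxb8 from about 2 to 1, and Hoxc8, Hoxc10 and Hoxd10 from about 1 to 0. Hoxa10 stood at 98.3% of the control, and the shared directions were not tested. Group 13 was the only group with more than 3 genes in which every gene was above 0 in both libraries, and it summed to 1.12 FPKM in the control and 0.827 FPKM with USP21 shRNA. All 3 genes of group 6 were listed at 0 in both libraries.

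The 28 genes under the level were counted in single fragments. Of these, 20 were above 0 in one library or both, at 0.0106 to 0.0894 FPKM where above 0. Listed at 0 in both libraries were Hoxa6, Hoxb5, Hoxb6, Hoxc6, Hoxc9, Hoxc11, Hoxd3 and Hoxd12. Hoxa4, Hoxc5 and Hoxd4, all central genes, were above 0 only with USP21 shRNA, at 0.0387, 0.0286 and 0.0252 FPKM. Hoxa2, Hoxa9, Hoxc8, Hoxc10 and Hoxd10 were above 0 only in the control library, at 0.0106 to 0.0179 FPKM. The former rest on about 2 fragments each and the latter on about 1. Among all 23889 symbols, 5918 were listed at 0 in both libraries, 660 were above 0 only with USP21 shRNA and 720 only in the control. Over all 39 genes 16 were higher and 15 lower with USP21 shRNA, where 9128 and 8843 of all symbols were. Just inside the level lay Hoxa3, whose higher value was 0.106 FPKM, and just outside it Hoxd9, at 0.0894 FPKM.

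Hoxa10, whose promoter the study examined, lay under the level, at 0.0883 FPKM in the control and 0.0868 FPKM with USP21 shRNA. Its log2 ratio was -0.01, on about 8 and 6 fragments. RefSeq gives it a pair of start windows on the minus strand of GRCm38.p6, shown because the study's own Hox measurement was made at this gene, again with CpG in capitals. The distal one, at chr6:52240805-52241104, holds 12 CpG with an observed to expected ratio of 0.596, and the one nearer to the coding exons, at chr6:52234890-52235189, holds 21 CpG with a ratio of 0.853.
Hoxa10, distal start: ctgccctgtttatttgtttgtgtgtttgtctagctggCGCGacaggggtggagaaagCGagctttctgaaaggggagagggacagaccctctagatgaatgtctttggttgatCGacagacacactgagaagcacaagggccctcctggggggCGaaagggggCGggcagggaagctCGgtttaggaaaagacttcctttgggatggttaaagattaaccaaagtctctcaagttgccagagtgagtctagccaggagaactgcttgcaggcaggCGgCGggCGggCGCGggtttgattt
Hoxa10, proximal start: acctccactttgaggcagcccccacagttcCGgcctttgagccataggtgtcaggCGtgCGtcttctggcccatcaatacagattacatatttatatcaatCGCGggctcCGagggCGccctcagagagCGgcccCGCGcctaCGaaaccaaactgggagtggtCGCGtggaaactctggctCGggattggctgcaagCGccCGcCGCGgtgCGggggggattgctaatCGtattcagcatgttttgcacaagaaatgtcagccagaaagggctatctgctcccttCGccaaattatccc

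The window of Hoxb4, on the plus strand at chr11:96318017-96318316, is set beside them as that of a gene with the opposite sign to the HoxD pair. It holds 14 CpG, an observed to expected ratio of 0.593. Other windows went both ways. Hoxd8 and Hoxd9, both lower with USP21 shRNA, hold 6 and 20 CpG with ratios of 0.367 and 0.573. Hoxa3 and Hoxa5, both higher, hold 20 and 29 with ratios of 0.657 and 1.02, while Hoxc4, also higher, holds 9 with 0.333. A link between CpG content and direction was not tested.
Hoxb4: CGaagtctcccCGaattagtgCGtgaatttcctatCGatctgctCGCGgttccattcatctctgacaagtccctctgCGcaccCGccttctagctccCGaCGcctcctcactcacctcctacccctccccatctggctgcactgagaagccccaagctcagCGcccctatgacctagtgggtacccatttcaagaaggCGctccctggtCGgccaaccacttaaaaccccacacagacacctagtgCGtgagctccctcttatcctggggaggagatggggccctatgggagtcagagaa

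The RefSeq table held 24 windows for 22 of the 39 Hox genes, and 32851 windows for 27025 genes in all. Hox windows held a median of 14.5 CpG, from 4 to 45, where all windows held a median of 7. The median observed to expected ratio was 0.626 against 0.384, and 45.8% of Hox windows against 33.5% of all met a common island rule (GC of at least 50% and a ratio of at least 0.6). Motifs were searched on both strands, and none of the 3 contains another. TATAAA, the TATA box core, was in 16.7% of Hox windows, Hoxd13 among them, and in 13.6% of all. AGGTCA, the half-site of retinoid receptors, was in 29.2% of Hox windows, Hoxb4 among them, and in 16.3% of all. TGATNNAT, a site shape bound by Hox proteins with their PBX partners, was in 16.7% of Hox windows and in 8.85% of all. These are descriptions of letters in a short window and not of binding.

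**Figure D4:**
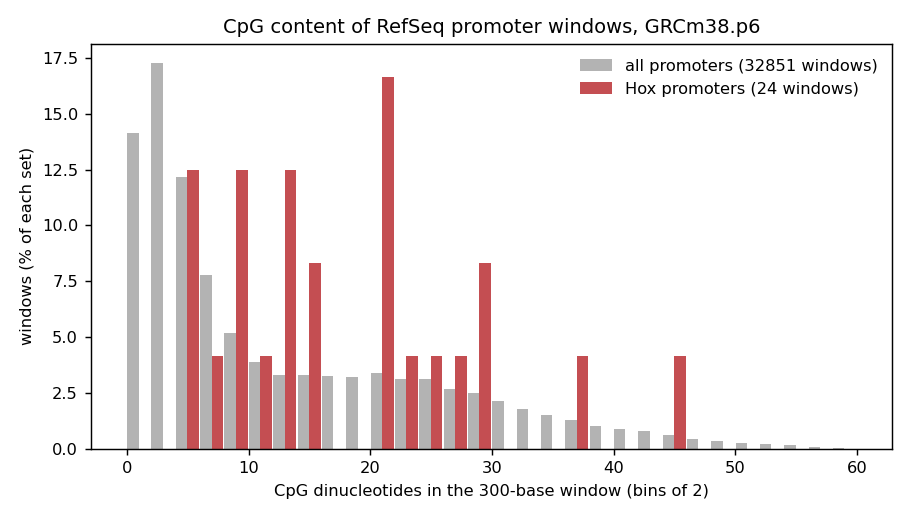
Number of CpG dinucleotides in RefSeq promoter windows (250 bases before to 50 after the start), in bins of 2, as a percentage of the 24 Hox windows and of all 32851 windows. Hox windows centre on a median of 14.5 CpG and all windows on 7.

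The Hox proteins bind DNA together with TALE homeodomain cofactors of the PBX, MEIS and PKNOX families. All 9 cofactor genes were higher with USP21 shRNA, with a median log2 ratio of 0.57, and 3 of them by 2-fold, against 3.4% of all genes past the level and 7.29% of those from 0.1 to under 1 FPKM. Of these, Meis1 rose from 0.525 to 1.84 FPKM, a log2 ratio of 1.63, and Pknox2 from 0.732 to 2.2 FPKM, a log2 ratio of 1.47. Pbx2, the highest of the family, was at 23.7 and 30.1 FPKM.

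The Polycomb genes were expressed well above the Hox genes. Of 24 measured PRC1 genes, 0 were 2-fold higher and 1 lower, where 3.4% and 3% of all genes past the level were. The 1 was Yaf2, a partner of the RING1 ligases, which fell from 10.7 to 4.64 FPKM. The highest was Phc1 at 148 and 175 FPKM, and the ligase genes Ring1 and Rnf2 were at 8.56 and 9.03 FPKM and at 75.6 and 54.0 FPKM. Of 15 PRC2 genes none passed 2-fold, and the highest value was that of E130012A19Rik, the gene of the PRC2 partner EPOP, in the control library, at 167 FPKM against 108 FPKM with USP21 shRNA, where Rbbp7 was highest at 165 FPKM. The core PRC2 genes Ezh2, Eed and Suz12 had log2 ratios of -0.22, -0.20 and -0.04. A list of 10 genes held H2A deubiquitinases, the enzymes that undo the PRC1 mark, and the partner genes Asxl1 and Asxl2. Of these 10, Usp21 alone was called, which is the target of the shRNA, and the highest was Usp22 at 67.9 and 101 FPKM.

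MLL complexes methylate histone H3 lysine 4 and oppose Polycomb at Hox genes. Of 13 measured genes of these complexes 1 was 2-fold higher and 0 lower, against 3.4% and 3% of all genes past the level. It was Kmt2a, the gene of MLL1, which rose from 4.74 to 9.87 FPKM, a log2 ratio of 1.04. This ratio lies close to the 2-fold line and was not corrected for transcript length, with which log2 ratios rose across genes (Spearman's rho 0.34). The highest, Dpy30, was at 234 and 184 FPKM. The median log2 ratios of the 3 lists, 0.06 for PRC1, 0.10 for PRC2 and 0.07 for MLL genes, lay close to that of all genes.

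Retinoic acid and Cdx factors act upstream of Hox genes in the embryo. Of 17 retinoic acid genes past the level, 3 were 2-fold higher and 1 was 2-fold lower, where 3.4% and 3% of all genes were. In all 9 were higher and 8 lower, and the median log2 ratio was 0.07. Stra8, a classical retinoic acid target, rose from 5.30 to 14.3 FPKM and the binding protein gene Crabp2 from 1.70 to 4.08 FPKM, while Crabp1, another binding protein gene, fell from 24.3 to 10.9 FPKM. The third that rose was the receptor gene Rarb, from 0.182 to 0.479 FPKM, which falls outside the naming rule and was chosen after its values were seen. The receptor gene Rarg was the highest at 49.9 and 64.2 FPKM. All 4 Cdx and ParaHox genes past the level were higher, with a median log2 ratio of 0.76, and Cdx1, the highest, was at 1.08 and 1.94 FPKM, a log2 ratio of 0.79. Only Gsx1 passed 2-fold, from 0.176 to 0.584 FPKM, also named after its values were seen.

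Genes inside and beside the clusters that are not Hox genes split by place. Evx1, an even-skipped homeobox gene next to HoxA, was at 0.0520 FPKM in the control and listed at 0 with USP21 shRNA, and Evx2 beside HoxD was listed at 0 in both. Of 13 non-coding RNA genes of the clusters with a value, 11 were listed at 0 in both libraries, and 6 of the 13 are microRNA genes, whose short products RNA libraries of this kind do not measure. Mira, a non-coding RNA of HoxA, was at 0.301 FPKM in the control and 0.565 FPKM with USP21 shRNA, a log2 ratio of 0.73. The 18 flanking genes were all past the level, up to Atp5g3 near HoxD at 711 and 576 FPKM, and none passed 2-fold. Among all genes past the level 3.4% were 2-fold higher and 3% lower, so a count of 0 does not set the flanking genes apart. Of the 18, 11 were higher and 7 lower with USP21 shRNA. Beside HoxD, Mtx2 was at 75.5 and 72.3 FPKM and Lnp at 5.10 and 4.67 FPKM. The listed genes near HoxD were all lower, with log2 ratios of -0.06 (Mtx2), -0.13 (Lnp), -0.11 (Hnrnpa3) and -0.31 (Atp5g3). The HoxD sum stood at -1.11. Near HoxB, Skap1, Snx11, Ttll6, Calcoco2, Cbx1 and Nfe2l1 were all higher, by log2 ratios of 0.08 to 0.72. A shared direction of clusters and neighbours was not tested.

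As a further group of developmental genes known as Polycomb targets, 81 homeobox and paired-box genes outside the clusters were counted. Of these, 41 were past the level, 0 were 2-fold higher and 6 were 2-fold lower, with 11 higher and 30 lower in all and a median log2 ratio of -0.29. None of the 6 reached an FPKM of 1, and 6.4% of all genes from 0.1 to under 1 FPKM were 2-fold lower, as were 3% of all genes past the level. The highest, Gbx2, was at 28.2 and 35.8 FPKM. The Hox genes had a median of 0.16 on the same scale, and the HoxD pair of -0.83.

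**Figure D5:**
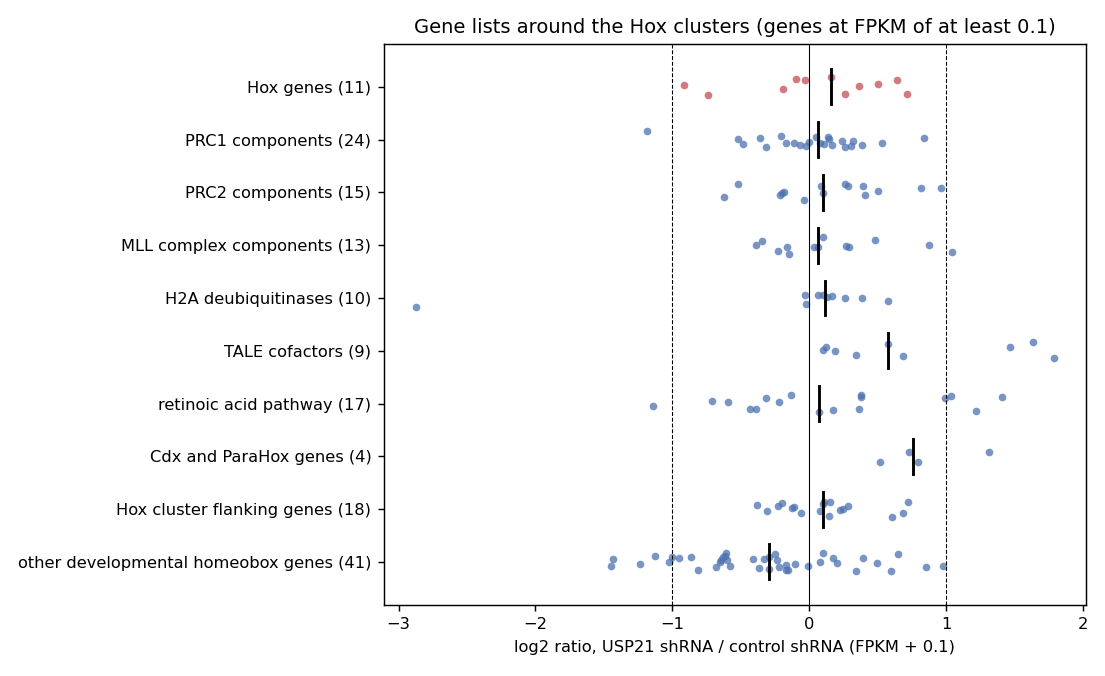
Log2 ratio of USP21 shRNA over control shRNA for genes at 0.1 FPKM or more in the Hox set and 9 gene lists, 1 point a gene, with the number of genes in brackets, a bar at the median and dashed lines at 2-fold. The 11 Hox genes have a median of 0.16 and lie inside the lines, while 3 of 9 TALE cofactors lie past the upper one.

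Transcript length and the markers of other cell types were read beside these values. Across 11123 genes the log2 ratio was correlated with transcript length (Spearman's rho 0.34, a description across genes of the same 2 libraries), and the median lengths of the genes past the level were 2251 bases in HoxA, 2386 in HoxB, 2291 in HoxC and 2172.5 in HoxD. With the median of genes of like length taken off, the median log2 ratio was -0.76 for HoxD and 0.44 for HoxB. The values of the other gene lists were not corrected in this way. Fibroblast markers summed to 22.5 FPKM in the control and 12.5 FPKM with USP21 shRNA, with 6 of 10 past the level and Lum listed at 0 in both. Without Thy1, which stem cells also carry, the other 9 summed to 5.23 and 7.18 FPKM, and of the 10 genes 6 were higher and 3 lower. Neural progenitor markers summed to 47.1 and 31.9 FPKM, with 4 of 9 past the level and none at 0 in both libraries. Without Tubb3 the other 8 summed to 8.64 and 11.6 FPKM, and of the 9 genes 6 were higher and 3 lower. Primitive streak and mesoderm markers summed to 6.36 and 7.10 FPKM, with 9 of 11 past the level, and primitive endoderm markers to 82.2 and 77.3 FPKM, with 8 of 8. The part of these cells in the Hox values was not tested, and fewer cells expressing a gene cannot be told apart from less RNA per cell.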

How the data were processed

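RNA of 2 libraries of E14 cells, control shRNA and USP21 shRNA, was sequenced from Illumina libraries of total RNA. The deposited values are FPKM, 1 for each symbol in each library. The submitters' processing notes name CASAVA 1.8.2, TopHat2 2.0.14, Cufflinks 2.2.1 and the mm9 build; the gene annotation and strand setting are not given in the sources used here. Groups follow the labels. The log2 ratio of FPKM plus 0.1 was computed for all symbols, and genes at 0.1 FPKM or more in at least one library were called at 2-fold. No counts are held, so depth was read from 1-fragment steps among 1439 low genes, and no interval was given. Transcript lengths and exon overlaps came from GENCODE M21, promoter windows from RefSeq, both GRCm38, and were joined by gene, never by coordinate.

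The Hox genes, lists and marker sets were chosen with earlier results of these data known. Every Hox gene past the level was to be named, Hoxa10 and Usp21 always, and of each other list the highest member and those past 2-fold at 1 FPKM or more, at most 4; single values of some of these are not reported here. The calling script was tested on simulated libraries in which only genes at 1 FPKM or more in the control were changed. That test does not cover calls in the low range, where most Hox genes past the level lie. Alternatives were pseudocounts of 1 and 0.01, other levels, equal sums (TPM), a median of 0, 1.5-fold, other bounds of anterior and, added after seeing the data, a length correction, a low-range background, the background of each alternative call, stem cell markers at equal sums and marker sums without their highest gene. Computation used pandas 2.3.3 and scipy 1.17.1 in Python 3.11.15, with plots from matplotlib 3.10.9.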

Additional observations from a re-analysis of the deposited data

How the results depend on the processing

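No fold is backed by replicates, and most Hox genes rest on under 10 fragments, which limits what can be read from any one of them. With a pseudocount of 0.01 or a 1.5-fold threshold the counts became 2 higher and 2 lower, against 0 and 0, near the shares of genes of like level given above. The genes past the level were 3 at an FPKM of 0.5 and 1 at an FPKM of 1, against 11. The HoxD median, -0.83, was -0.23 with a pseudocount of 1, by its construction closer to 0, and -0.20 without the filter, which adds genes at or near 0. The HoxD sum kept its direction, at -0.93 with equal sums and -1.03 without Hoxd13. With equal sums the anterior sum went from -0.09 to 0.09, the posterior from -0.16 to 0.02 and the whole Hox sum from -0.01 to 0.17. Of 55 values of the 11 genes under 5 alternatives, 50 kept a fold within 1.5 times that of the main setting. Log2 ratios could still shrink inside that bound, with a pseudocount of 1 from 0.64 to 0.11 for Hoxb7 and from 0.50 to 0.11 for Hoxb4. The sign changed in 3 of the 55, with Hoxc13 at 0.11 with equal sums and at 0.03 with the length correction. No paired analysis was possible because each group has 1 library.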

Other observations

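Among the marker lists read beside the Hox genes, 3 genes passed 2-fold. They were 1 of 9 primitive streak and mesoderm markers past the level, 1 of 8 primitive endoderm and 1 of 6 fibroblast markers. None of the 8 stem cell and 4 neural progenitor markers past the level did. Among all genes past the level, 3.4% were 2-fold higher and 3% were 2-fold lower. Hand1, a mesoderm and trophoblast factor, rose from 0.403 to 1.25 FPKM, a log2 ratio of 1.42, while the highest of its list, Mesp2, was at 2.47 and 1.84 FPKM. Sox7, an endoderm factor, fell from 4.68 to 1.97 FPKM, a log2 ratio of -1.20, and Lama1, the highest of that list, was at 32.0 and 33.3 FPKM. Thy1, a surface protein of fibroblasts that stem cells also carry, fell from 17.3 to 5.29 FPKM. Tubb3, the highest neural progenitor marker, was at 38.5 and 20.4 FPKM. Dppa5a, the highest stem cell marker, was at 1849 and 1285 FPKM.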
